A study of Rattus norvegicus with 10 samples.

Results

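Hepatic fatty acid oxidation and ketogenesis were followed through 8 genes, Cpt1a, Cpt2, Acadm, Ehhadh, Pdk4, Bdh1, Fgf21 and Angptl4, of the 13837 genes that the arrays named. The members were chosen by name as targets of PPAR alpha that rise with fasting, and each was measured by the probe whose accession belongs to its symbol. All 8 had 1 probe. The data came from liver RNA of male Sprague Dawley rats. Control rats (3 arrays) received the solvent, propylene glycol, under the skin. SM rats (4 arrays) received 1 subcutaneous injection of sulfur mustard, an alkylating blister agent, at 3.5 mg/kg, which is 0.7 of the LD50. SM + MSTF rats (3 arrays) received the same injection and, 1 h later, MSTF by stomach tube at 120 mg/kg, a mixture of salvianolic acids taken from Salvia miltiorrhiza with flavonoids of Anemarrhena asphodeloides. All livers were taken 24 h after the injection, and each array held the RNA of 1 liver, with no group that received MSTF alone. Age, and whether the rats were fasted before death, are not given in the sources used here.

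In the liver, long-chain fatty acids are coupled to carnitine to cross into mitochondria, where beta-oxidation shortens them to acetyl-CoA. When fatty acids are plentiful and carbohydrate is scarce, as in fasting, part of that acetyl-CoA is turned into the ketone bodies acetoacetate and 3-hydroxybutyrate for export. PPAR alpha, a nuclear receptor that binds fatty acids, raises transcription of many genes of these steps in partnership with RXR, and it also drives the hormones and inhibitors by which the liver reports its fasted state.

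PPAR alpha with RXR binds repeats of AGGTCA, and the promoter windows of the members, 250 bases before to 50 bases after the annotated start in the RefSeq table for GRCr8, were searched for 2 copies of AGGTCA in the same direction with 1 base between them, allowing 2 mismatches over the 12 fixed bases on both strands. None of the 8 member windows held such a repeat, against 3.77% of 33469 windows in the table. An exact single AGGTCA on either strand, which overlaps the repeat and was held by 16.2% of all windows, was absent from the 8 as well. That says only that these letters are not in these windows. TATAAA on the strand of the gene, found in 8.80% of all windows, lay in 2 of the 8, beginning 32 bases before the start of Fgf21 and 39 bases before that of Angptl4. The 250 bases before the start are shown for the secreted factors Angptl4 and Fgf21 and for Ehhadh and Bdh1, the members nearest to the threshold in the comparison of SM with control, written 5′ to 3′ along the gene with TATAAA in capitals.
Angptl4, chr7:15258682-15258931, minus strand: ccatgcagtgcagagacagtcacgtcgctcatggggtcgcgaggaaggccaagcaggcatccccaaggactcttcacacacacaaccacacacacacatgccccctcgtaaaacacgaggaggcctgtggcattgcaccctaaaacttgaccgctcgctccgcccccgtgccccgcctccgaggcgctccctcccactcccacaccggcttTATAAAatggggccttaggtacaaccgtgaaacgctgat
Fgf21, chr1:105221377-105221626, minus strand: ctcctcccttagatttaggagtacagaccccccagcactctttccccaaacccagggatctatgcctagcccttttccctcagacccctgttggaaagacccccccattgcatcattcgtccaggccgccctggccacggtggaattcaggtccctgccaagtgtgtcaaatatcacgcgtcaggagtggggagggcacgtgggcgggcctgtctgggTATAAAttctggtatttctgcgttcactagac
Ehhadh, chr11:92746159-92746408, plus strand: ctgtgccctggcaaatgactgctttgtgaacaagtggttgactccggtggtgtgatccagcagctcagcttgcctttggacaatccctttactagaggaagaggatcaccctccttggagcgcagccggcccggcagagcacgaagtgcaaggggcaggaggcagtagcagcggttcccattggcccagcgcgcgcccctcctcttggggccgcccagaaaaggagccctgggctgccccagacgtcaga
Bdh1, chr11:82842637-82842886, minus strand: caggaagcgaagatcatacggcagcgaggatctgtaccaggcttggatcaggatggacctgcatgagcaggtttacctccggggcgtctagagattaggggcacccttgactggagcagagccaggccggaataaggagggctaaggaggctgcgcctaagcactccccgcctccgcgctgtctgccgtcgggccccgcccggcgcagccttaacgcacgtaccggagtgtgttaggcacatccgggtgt
Of the other pathway genes found in the promoter table, 13 held the repeat (12.1%). Amacr, the peroxisomal racemase of branched-chain acyl-CoA and the member of those 13 named below for its values, is shown with the repeat in capitals and 15 bases on either side.
Amacr, chr2:61673112-61673154, plus strand: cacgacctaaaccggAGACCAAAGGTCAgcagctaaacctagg

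The arrays read gene expression as log2 spot signal after quantile normalization, and probes that some group measured well above background throughout were tested. That left 22991 of 41012 probes. All 8 members were well above background on all 10 arrays, with spots between 8.69 times local background (Pdk4) and 1101 times (Acadm). Hepatocyte markers were well above background on every array for 6 of 6 genes. Their summed level on the log2 scale was 19.49 to 19.67 in control, 19.41 to 19.56 in SM and 19.19 to 19.48 in SM + MSTF. Every SM + MSTF sum was below every control sum, but the nearest were 19.481 and 19.485. For SM + MSTF over control, Ttr stood at -0.49 and Apoa1 at -0.43 on the log2 scale, without overlap. Alb (-0.05), Cps1 (-0.02), Tat (0.31) and Cyp2e1 (0.31) overlapped with control. Adipoq and Lep of adipocytes, Ckm and Myh1 of skeletal muscle and Prss1, Cela1, Pnlip and Cpa1 of pancreas were not well above background on any array, while Cfd of adipocytes and Mb of muscle were so on all 10 and Amy2a3 of pancreas on 8. Retn of adipocytes and Acta1 of muscle were so on 1 array each and Tnnt3 of muscle on 2. Markers of stellate cells (5 of 5 well above background on all arrays) summed to 12.18 to 12.45 in control, 11.75 to 12.06 in SM and 11.56 to 12.37 in SM + MSTF, and those of lymphocytes (1 of 4 on all arrays) to 7.11 to 7.34, 5.95 to 6.54 and 6.61 to 7.37. Those of skeletal muscle (1 of 5 on all arrays) summed to 7.83 to 8.06, 7.20 to 7.75 and 7.32 to 7.74. All 3 sums were lower in every SM array than in every control, as were Bdh1 and Pdk4. The muscle sum was lower in every SM + MSTF array too, as was Bdh1. Single markers did not all follow their sum. Of stellate cells, the log2 fold change of SM over control was -0.99 for Col1a1 and -0.20 for Lrat. It was 0.70 for Rgs5, 0.33 for Dcn and 0.20 for Des. Cd79b (-2.18) and Cd8a (-0.26) of lymphocytes and Mb (-0.36) of muscle were lower, with overlap of the groups for Cd8a and Mb. Other lymphocyte and muscle markers were too dim to be tested. The part of these markers in the differences below was not tested. The summed markers of Kupffer cells (6 of 6 on all arrays) were 15.64 to 16.18, 15.07 to 15.92 and 15.69 to 16.08, and 0 marker genes of any list were called. The arrays lay on 3 slides. All controls and SM + MSTF replicate 3 shared slide 1, slide 2 held nothing but SM, and SM + MSTF replicates 1 and 2 were on slide 3, so an effect of SM and an effect of slide 2 cannot be told apart. SM + MSTF replicate 3 stood apart in this pathway by its highest signals. Of 112 tested genes in 6 lists of fatty acid metabolism besides the members, it gave the highest signal of the 10 arrays for 37 (33.04%) and the lowest for 29 (25.9%), against 13.7% and 18.5% over all tested probes. Other arrays also passed their share of lowest signals. These were control replicate 1 (19.6% against 10.8%), SM replicate 3 (16.1% against 9.06%) and SM replicate 4 (13.4% against 7.26%). Less RNA per cell and fewer cells of a type cannot be told apart in whole liver.

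None of the 8 members passed the test in any comparison. A gene was called at a Benjamini-Hochberg adjusted p under 0.05 in limma, fitted over all tested probes, with at least a 1.5-fold difference. In SM versus control, 0 of 8 members were called against 2.41% of all tested probes, and 1 of 8, Bdh1, had an adjusted p under 0.05 at any fold, against 2.80%. Between SM + MSTF and control, 0 of 8 members and 0% of all tested probes were called, and 0% had an adjusted p under 0.05 at any fold. Between SM + MSTF and SM, 0 of 8 were called against 1.26%, and 0 of 8 passed at any fold against 1.36%. At an unadjusted p under 0.05 the members numbered 2, 4 and 2 in these 3 comparisons, which is 25%, 50% and 25%, against 16.4%, 9.54% and 15.9% of all tested probes. The methods' t-test, at the same fold and unadjusted p, took 1 member in each comparison, Ehhadh in both comparisons with control and Angptl4 in SM + MSTF versus SM, and 0 after Benjamini-Hochberg adjustment. Without replicate 3 of SM + MSTF, the count of 0 over all probes against control became 248, 9 of them higher, with 0 members among them. The SM + MSTF arrays left were all on slide 3 and the controls on slide 1, so treatment and slide cannot be told apart there. The same holds for every value against control given without replicate 3.

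The median log2 fold change of the 8 members was -0.32 for SM over control, 0.41 for SM + MSTF over control and 0.43 for SM + MSTF over SM, beside 0.03, 0.005 and -0.02 over all tested probes. The first of these had 6 members with a lower fitted mean, and the last had 7 with a higher one. These comparisons share arrays, so they are not independent of each other. The median of SM + MSTF against control moved to 0.63 without its replicate 1, 0.24 without replicate 2 and 0.27 without replicate 3, and that against SM to 0.62, 0.22 and 0.19. The median of SM over control moved to -0.20 without control replicate 2 or without SM replicate 3.

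**Figure D1:**
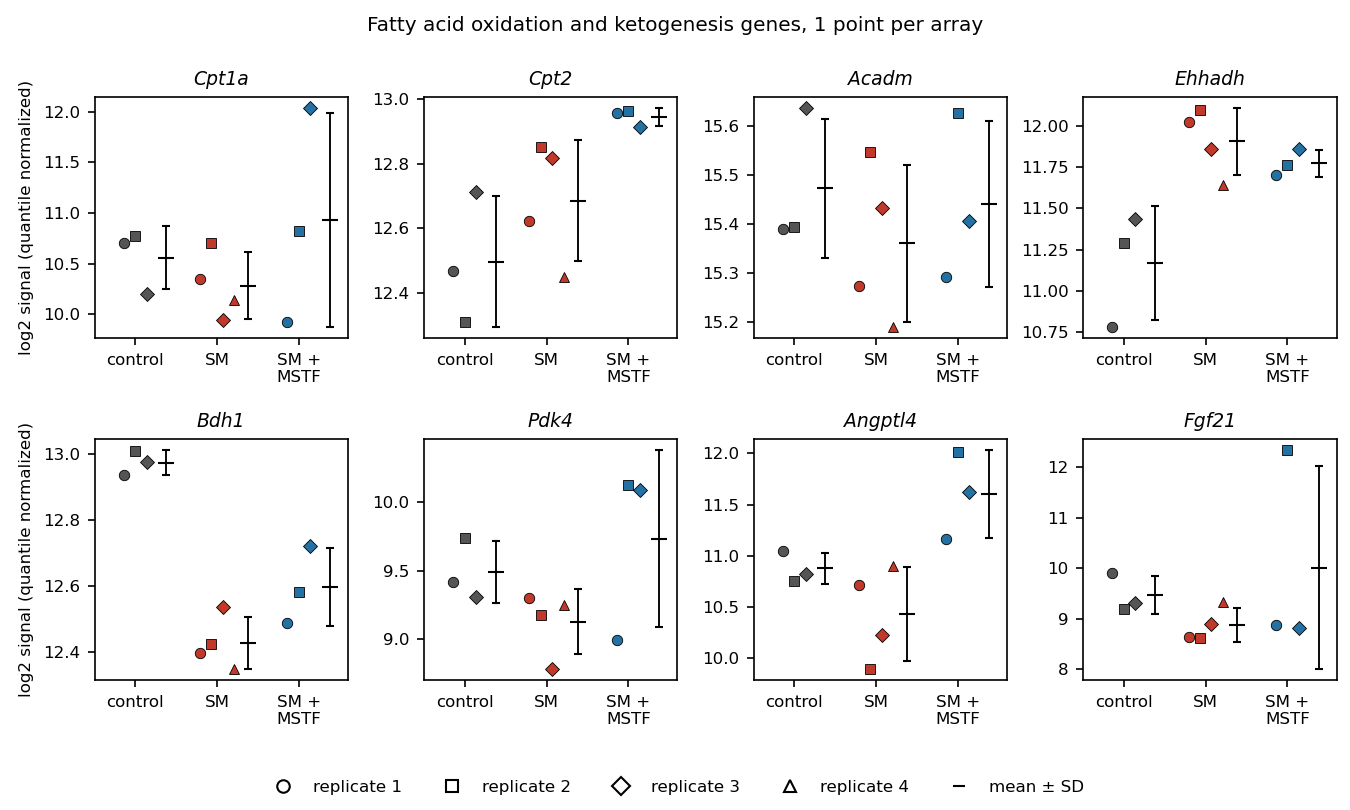
Log2 signal after quantile normalization (vertical axis) of the 8 genes in the 10 arrays by group (horizontal axis), 1 symbol per replicate number, with the mean and SD of each group beside its points. Bdh1 sits above 12.9 in all 3 controls and below 12.8 in all 7 treated arrays, and Fgf21 is at 12.33 in SM + MSTF replicate 2 alone.

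The carnitine shuttle is carried by Cpt1a, the outer-membrane transferase that sets the pace of entry, and Cpt2, the inner-membrane transferase that hands the acyl group back to CoA. Cpt1a had a log2 signal of 10.704, 10.775 and 10.206 in the controls, 10.35, 10.71, 9.94 and 10.14 in SM, and 9.93, 10.83 and 12.04 in SM + MSTF. The last of these, replicate 3, was above every other array, while replicate 1 was the lowest of all 10, and no pair of groups was separated. The mean was lowest in SM at 10.28 ± 0.33 (SD, n = 4), then control at 10.56 ± 0.31 (SD, n = 3), then SM + MSTF at 10.93 ± 1.06 (SD, n = 3), and no neighbours in that order differed beyond their spread. The log2 fold change of SM + MSTF over SM was 0.65 with a standard error of 0.42 (limma adjusted p = 0.454), and without replicate 3 it was 0.09. Against control it was 0.37 with all arrays and -0.18 without replicate 3, so its direction rested on that array.

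Cpt2 gave a steadier picture. Its log2 signal was 12.47, 12.31 and 12.71 in the controls, 12.62, 12.85, 12.82 and 12.45 in SM, and 12.96, 12.96 and 12.91 in SM + MSTF. All 3 SM + MSTF arrays lay above all 7 others, with an SD of 0.027, and SM overlapped with control. The difference of SM + MSTF from control was 0.45 with a standard error of 0.14, or 1.37-fold, with an unadjusted p of 0.00917 and an adjusted p of 0.424 in limma. Against SM it was 0.26 with a 95% confidence interval of -0.03 to 0.55 (limma adjusted p = 0.351), and SM stood 0.19 above control (limma adjusted p = 0.521).

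Acadm, the medium-chain acyl-CoA dehydrogenase of mitochondrial beta-oxidation, varied least among the groups. Its log2 signal ran from 15.39 to 15.64 in the controls, from 15.19 to 15.55 in SM and from 15.29 to 15.62 in SM + MSTF, so that all 3 groups overlapped. SM differed from control by -0.11 on the log2 scale, with a 95% confidence interval of -0.39 to 0.17, and SM + MSTF differed from control by -0.03, with an interval of -0.33 to 0.27. SM + MSTF differed from SM by 0.08, with an interval of -0.20 to 0.36 (limma adjusted p = 0.776). Under 75th percentile scaling the difference from control in SM turned to 0.03 and that between SM + MSTF and SM to -0.08.

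Ehhadh, the peroxisomal bifunctional enzyme that hydrates and then oxidizes the acyl chain, was the member with the largest positive difference in SM. Its log2 signal was 10.78, 11.29 and 11.44 in the controls, 12.02, 12.09, 11.86 and 11.64 in SM, and 11.70, 11.76 and 11.86 in SM + MSTF. Every array of both treated groups lay above every control, and the treated groups overlapped. SM exceeded control by 0.74 with a standard error of 0.17, or 1.66-fold, with a limma adjusted p of 0.0509, which misses the threshold. With the deposited log2 values in place of those normalized here, the adjusted p was 0.0497 and Ehhadh was called. Over all other settings of the limma fit it ran from 0.0508 to 0.139, the last with the slide as a random block. SM + MSTF exceeded control by 0.60 with a standard error of 0.18 (unadjusted p = 0.00723, limma adjusted p = 0.423). SM + MSTF stood -0.13 from SM, with a 95% confidence interval of -0.50 to 0.24.

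Pdk4 phosphorylates and silences pyruvate dehydrogenase, so that fatty acids rather than glucose feed the mitochondria. Its log2 signal was 9.42, 9.74 and 9.31 in the controls, 9.30, 9.18, 8.78 and 9.25 in SM, and 8.99, 10.12 and 10.09 in SM + MSTF. All SM arrays lay below all controls, though the nearest were 9.30 and 9.31, and in SM + MSTF replicates 2 and 3 were above every other array whereas replicate 1 was within SM. SM differed from control by -0.36 with a standard error of 0.27 (limma adjusted p = 0.559). SM + MSTF exceeded SM by 0.61 with a standard error of 0.27 (unadjusted p = 0.0483, limma adjusted p = 0.31), by 0.98 without replicate 1 (limma adjusted p = 0.0636), 0.41 without replicate 2 and 0.43 without replicate 3 (limma adjusted p = 0.561).

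Bdh1 interconverts acetoacetate and 3-hydroxybutyrate in mitochondria, the final step in making the main circulating ketone body. Its log2 signal was 12.94, 13.01 and 12.98 in the controls, 12.40, 12.42, 12.53 and 12.35 in SM, and 12.49, 12.58 and 12.72 in SM + MSTF. All 7 treated arrays lay below the 3 controls, and the treated groups overlapped. In SM the mean was 12.43 ± 0.08 (SD, n = 4) against 12.97 ± 0.04 (SD, n = 3) in control, a log2 fold change of -0.55 with a standard error of 0.09 and a limma adjusted p of 0.0203. Bdh1 was therefore lower in SM at the adjusted threshold, but by 1.46-fold, which is under the 1.5-fold minimum. Among the settings that ended this were the slide as a random block (adjusted p = 0.0685) and leaving out control replicate 1 (0.0682), 2 (0.0895) or 3 (0.0751) or SM replicate 1 (0.0627). In SM + MSTF it differed from control by -0.38 with a standard error of 0.10 (unadjusted p = 0.00309, limma adjusted p = 0.406) and from SM by 0.17, with a 95% confidence interval of -0.03 to 0.37.

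Angptl4 and Fgf21 are secreted. Angptl4 inhibits lipoprotein lipase in the circulation and adipose tissue. Its log2 signal was 11.05, 10.76 and 10.82 in the controls, 10.72, 9.89, 10.22 and 10.90 in SM, and 11.16, 12.02 and 11.62 in SM + MSTF. Every SM + MSTF array lay above all 7 others, although replicate 1, at 11.16, was close to the 11.05 of a control, and SM overlapped with control. SM + MSTF exceeded SM by 1.17 with a standard error of 0.26, or 2.25-fold, the largest difference of a member in any of the 3 comparisons, with an unadjusted p of 0.00137 and a limma adjusted p of 0.0697. Over the other settings of the limma fit that adjusted p ran from 0.0541 to 0.184, so no setting brought it under the threshold. SM + MSTF exceeded control by 0.72 with a standard error of 0.28 (unadjusted p = 0.0283, limma adjusted p = 0.477), and SM differed from control by -0.44 (limma adjusted p = 0.45).

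Fgf21, a hormone of the fasted liver that acts through FGF receptors together with beta-Klotho, had a log2 signal of 9.90, 9.19 and 9.31 in the controls, 8.63, 8.62, 8.90 and 9.34 in SM, and 8.89, 12.33 and 8.81 in SM + MSTF. The animal of replicate 2 was alone in its high value, and the other 9 arrays spanned 8.62 to 9.90. With it, SM + MSTF exceeded SM by 1.14 with a standard error of 0.73 (limma adjusted p = 0.454). Without it the difference was -0.02, and that from control turned from 0.54 to -0.62. SM differed from control by -0.60 with a 95% confidence interval of -2.23 to 1.04.

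**Figure D2:**
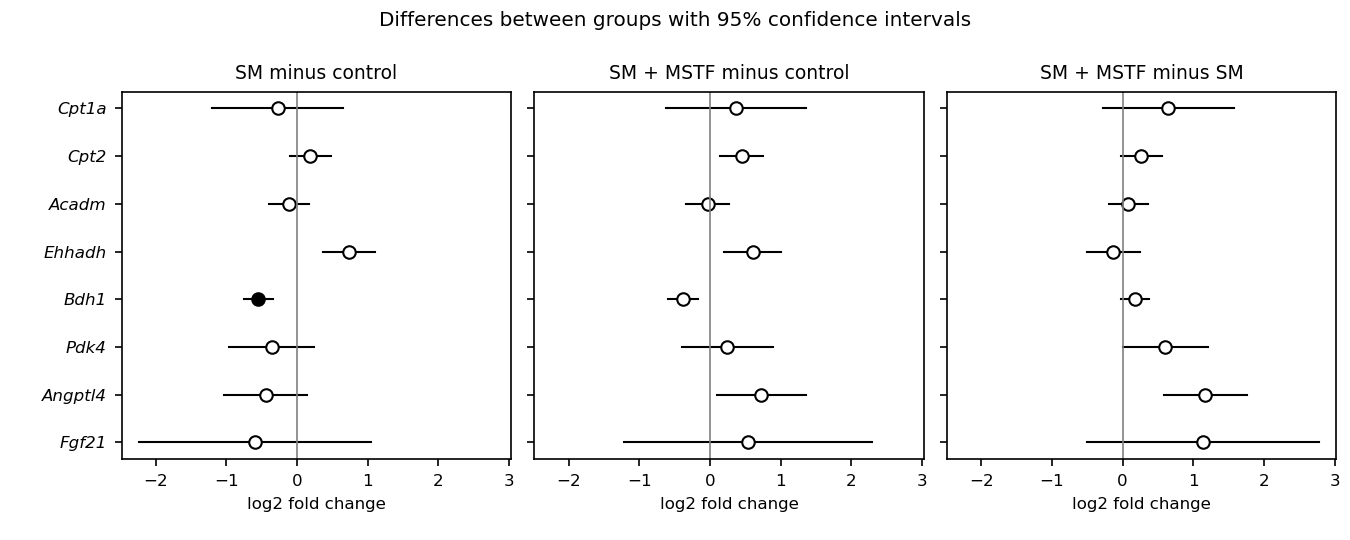
Log2 fold change (horizontal axis) of each gene (vertical axis) in the 3 comparisons, with 95% confidence intervals from limma as lines, filled circles for an adjusted p under 0.05 at any fold and open circles otherwise. The circle of Bdh1 in SM minus control, at -0.55, is the only filled one.

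Counted by arrays, the groups did not overlap for Ehhadh (higher) and for Pdk4 and Bdh1 (lower) in SM versus control, which is 3 of 8 members against 18.0% of all tested probes. Between SM + MSTF and control they did not overlap for Cpt2, Ehhadh and Angptl4 (higher) and Bdh1 (lower), 4 of 8 against 15.4%. Between SM + MSTF and SM they did not overlap for Cpt2 and Angptl4, both higher, 2 of 8 against 14.7%. Among the members SM + MSTF replicate 2 gave the highest of the 10 signals for 4 of 8, Cpt2, Pdk4, Fgf21 and Angptl4, against 11.1% of all tested probes. Replicate 3 did so for 1, Cpt1a (12.5%), which is near its 13.7% of all tested probes. Fgf21 and Cpt1a thus peaked in different animals of this group.

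Slide 1 allowed SM + MSTF replicate 3 to be set against the 3 controls of the same slide, by a fit with the slide as a fixed block in which that array was assumed to vary like the rest. The log2 differences were 1.47 for Cpt1a, 0.42 for Cpt2, -0.07 for Acadm, 0.69 for Ehhadh, 0.60 for Pdk4, -0.25 for Bdh1, -0.66 for Fgf21 and 0.75 for Angptl4. The limma adjusted p of the 8 ran from 0.137 (Cpt1a) to 0.936 (Acadm). Ehhadh and Angptl4 stood above control and Bdh1 below it, as over all 3 SM + MSTF arrays (0.60, 0.72 and -0.38), while Fgf21 had the opposite sign. Replicate 3 and the 3 controls are in both sets of differences, so the 2 are not independent. No slide held both SM and another group.

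The genes whose log2 signal over the 10 arrays was most like the mean of the standardized members were Zfp9 (Pearson r = 0.940), Atp2a2 (r = 0.932) and Unc50 (r = 0.929), out of 11790 named probes, where all points share the 10 arrays. They were picked as the highest of 11790 values over few arrays, so their r is a description, and shared regulation was not tested. The standardized mean of the members was 1.13 in SM + MSTF replicate 2 and 0.77 in replicate 3, and -0.62 to 0.15 in the other 8 arrays.

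The rest of the pathway was taken from 6 lists with 127 genes, of which 115 had a named probe and 112 were tested. For SM over control 1 of the 112 was called, Acsm3, and for SM + MSTF over SM 2 were called, Cyp4a1 and Cyp4a2, all of them higher, against the 2.41% and 1.26% of all tested probes. For SM + MSTF over control 0 were called in limma, with 15 at an unadjusted p under 0.05 (13.4%, against 9.54% of all tested probes). The methods' t-test took 8 of the 112 there, against 285 of all 22991 tested probes. At an unadjusted p under 0.05 SM over control had 11 (9.82%, against 16.4%). Of these 10 were higher, against 2134 of 3767 among all tested probes. SM + MSTF over SM had 23 (20.5%, against 15.9%), 15 of them higher, against 1432 of 3661.

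Among the 24 genes of peroxisomal and microsomal oxidation, 22 were tested and the median log2 fold change was 0.08 for SM over control, 0.33 for SM + MSTF over control and 0.23 for SM + MSTF over SM. Against control it moved to 0.14 without SM + MSTF replicate 3 and to 0.16 without control replicate 1, and against SM to 0.14 without SM + MSTF replicate 3 and to 0.41 without SM replicate 2. Cyp4a1, a microsomal omega-hydroxylase of fatty acids and a much used reporter of PPAR alpha activity in rat liver, had a log2 signal of 13.22, 13.39 and 13.11 in the controls, 13.29, 13.25, 13.34 and 13.12 in SM, and 14.01, 13.79 and 14.61 in SM + MSTF. All SM + MSTF arrays were above all others, replicate 3 the most, and SM did not stand apart from control. It rose in SM + MSTF over SM by 0.89 with a standard error of 0.18, or 1.86-fold (limma adjusted p = 0.0455), and without replicate 3 by 0.65 (limma adjusted p = 0.043). Cyp4a2, of the same family, had a log2 signal of 10.77, 10.87 and 11.54 in the controls, 11.53, 11.54, 10.87 and 11.06 in SM, and 12.74, 12.13 and 13.21 in SM + MSTF. It rose in SM + MSTF over SM by 1.44 with a standard error of 0.29, or 2.72-fold (limma adjusted p = 0.0465), and was not called without replicate 3 (1.18, limma adjusted p = 0.106). These calls were sensitive: with the slide as a random block the adjusted p was 0.0889 for Cyp4a1 and 0.103 for Cyp4a2, and of the 10 fits that each left out 1 array, 2 called Cyp4a1 and 2 called Cyp4a2. Against control the same genes stood at 0.90 and 1.63, with a limma adjusted p of 0.348 for each. The Cyp4a genes are close in sequence, and probe sequences were not used here, so a probe may read more than 1 of them.

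In the same list Amacr stood at -0.44 in SM versus control (limma adjusted p = 0.312) and at 0.48 in SM + MSTF versus SM (limma adjusted p = 0.289), or 0.27 without replicate 3 (limma adjusted p = 0.563). Another probe of Amacr gave 0.03 and 0.37. Decr2, a peroxisomal reductase for unsaturated acyl chains, stood at 0.48 in SM versus control with a limma adjusted p of 0.29. SM + MSTF replicate 3 gave the highest signal for 12 of the 22 tested genes of the list (54.5%).

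**Figure D3:**
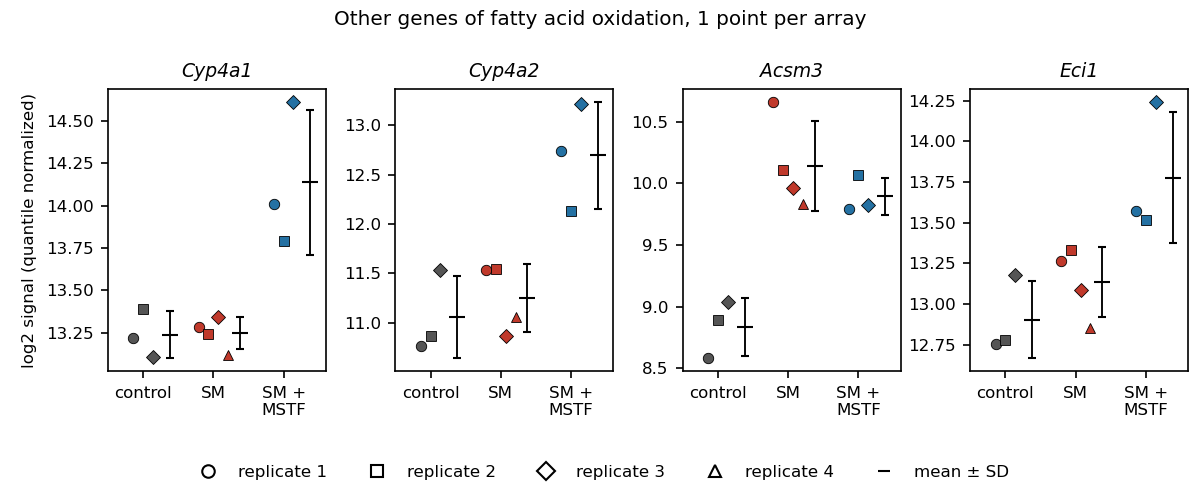
Log2 signal after quantile normalization (vertical axis) of 4 other genes of fatty acid metabolism in the 10 arrays by group (horizontal axis), 1 symbol per replicate number, with the mean and SD of each group. Cyp4a1 and Cyp4a2 lie higher in all 3 SM + MSTF arrays than in the 7 others, and Acsm3 lies higher in all 7 treated arrays than in the 3 controls.

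Among the 19 genes of fatty acid entry, Acsm3, a mitochondrial ligase that activates medium-chain fatty acids, had a log2 signal of 8.58, 8.89 and 9.04 in the controls, 10.66, 10.10, 9.96 and 9.83 in SM, and 9.79, 10.06 and 9.82 in SM + MSTF. All treated arrays lay above all controls, with no gap between SM and SM + MSTF. It rose in SM by 1.30 with a standard error of 0.20, or 2.47-fold (limma adjusted p = 0.0163). The call was lost, among other settings, with the slide as a random block (limma adjusted p = 0.0551) and without control replicate 1 or 2, where the adjusted p reached 0.0727. In SM + MSTF it stood 1.06 above control with a limma adjusted p of 0.348. Cd36, a fatty acid receptor of the cell surface, stood at 0.83 in SM versus control (limma adjusted p = 0.165) and at 1.15 in SM + MSTF versus control (limma adjusted p = 0.406), with no overlap with the controls in either. For Slc22a5, the carnitine transporter, the probes disagreed: in SM versus control the one used stood at -0.41 (limma adjusted p = 0.606) and another at 0.80. Acsl5, an acyl-CoA synthetase, stood at -0.52 in SM + MSTF versus SM (limma adjusted p = 0.376), and at -0.12 without replicate 3.

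None of the 18 genes of mitochondrial beta-oxidation was called in limma in any comparison. At an unadjusted p under 0.05 they numbered 0 for SM over control, 2 for SM + MSTF over control and 3 for SM + MSTF over SM. That is 0%, 11.1% and 16.7%, against 16.4%, 9.54% and 15.9% of all tested probes. By the methods' t-test 1 of them, Eci1, was taken in both comparisons of SM + MSTF. Of all 22991 tested probes that test took 285 against control and 863 against SM. Eci1, an enoyl-CoA isomerase, was at 12.75, 12.78 and 13.18 in the controls, 13.26, 13.33, 13.09 and 12.85 in SM and 13.57, 13.52 and 14.24 in SM + MSTF, on the log2 signal scale. SM + MSTF lay above both other groups without overlap, by 0.64 over SM with a standard error of 0.20 (limma adjusted p = 0.177) and by 0.87 over control (unadjusted p = 0.00247, limma adjusted p = 0.391). Without replicate 3 the difference from SM was 0.41 (limma adjusted p = 0.342). Hadha, the alpha subunit of the trifunctional protein, stood 0.32 above SM in SM + MSTF (limma adjusted p = 0.184), and another probe of it 0.16. Hadh and Acad9, both dehydrogenases of the pathway, were at -0.19 and -0.16 in SM versus control (limma adjusted p = 0.338 and 0.456).

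Among the 8 genes of ketone bodies, 6 were tested besides Bdh1 and none was called in limma in any comparison, or taken by the methods' t-test. At an unadjusted p under 0.05 in limma there were 0 for SM over control, 0 for SM + MSTF over control and 1 for SM + MSTF over SM. That is 0%, 0% and 16.7%, against 16.4%, 9.54% and 15.9% of all tested probes. Aacs, which returns acetoacetate to lipid synthesis in the cytosol, ranged from 7.35 to 8.94 within the controls and from 7.71 to 9.63 within SM + MSTF.

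**Figure D4:**
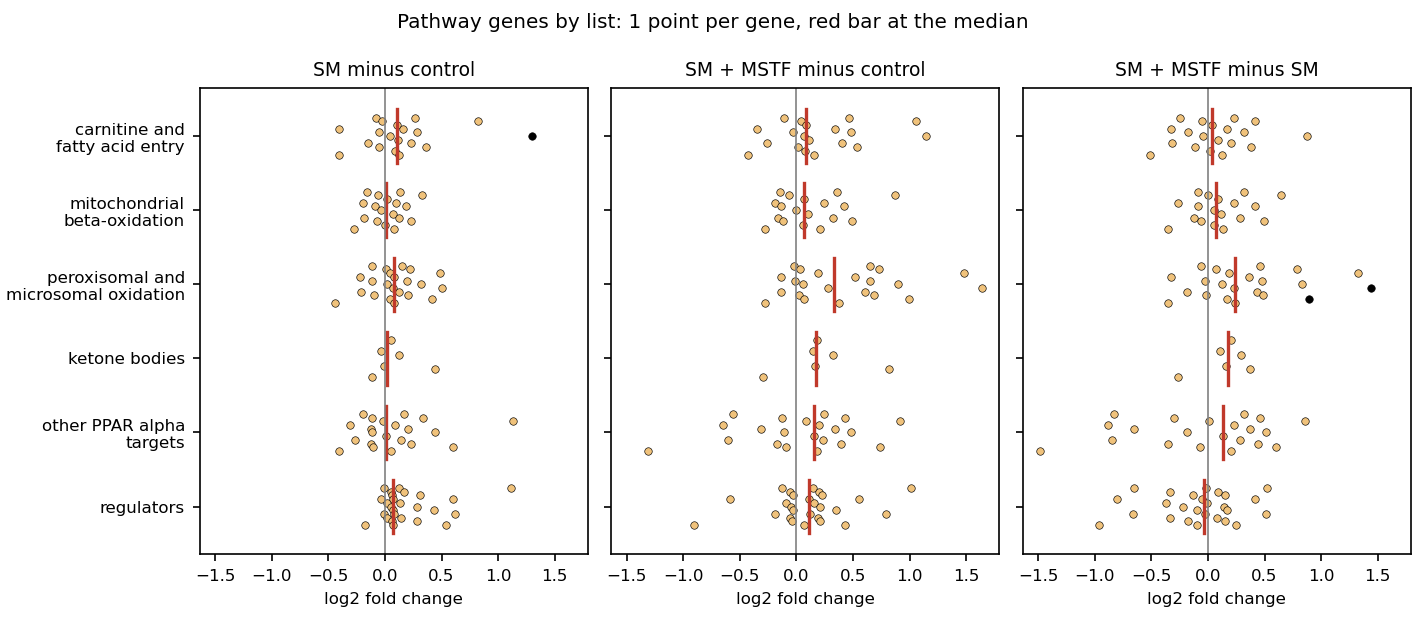
Log2 fold change (horizontal axis) of the 112 tested pathway genes besides the members, by list (vertical axis) and comparison, with 1 point per gene, black where called, and a red bar at the median of the list. The lists centre near 0 in SM minus control, and the median of peroxisomal and microsomal oxidation is 0.33 in SM + MSTF minus control, or 0.14 without SM + MSTF replicate 3.

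The other PPAR alpha targets and the regulators gave no limma call in any comparison. At an unadjusted p under 0.05 in limma there were 3, 1 and 4 of 21 tested targets and 3, 1 and 6 of 26 tested regulators. The shares were 14.3%, 4.76% and 19.05% of the targets and 11.5%, 3.85% and 23.1% of the regulators. Over all tested probes they were 16.4% for SM over control, 9.54% for SM + MSTF over control and 15.9% for SM + MSTF over SM. The methods' t-test took Ppard and Ppargc1a in SM versus control and Foxa2 in SM + MSTF versus SM, where it took 1131 and 863 of all 22991 tested probes. Pdk2, the more constant relative of Pdk4, stood at 0.44 in SM versus control with all 4 SM arrays above the controls (limma adjusted p = 0.201). Pdk4 had all 4 below, the nearest at 9.30 and 9.31 (limma adjusted p = 0.559). The groups did not overlap there for 18.0% of all tested probes. Lpl, the lipase that Angptl4 inhibits, stood at -0.41 in SM versus control (limma adjusted p = 0.252). Acot1 and Pnpla2, a thioesterase and the triglyceride lipase of fat droplets, were at 0.60 and 0.51 in SM + MSTF versus SM (limma adjusted p = 0.201 and 0.265), falling to 0.39 and 0.31 without replicate 3. Fgfr1, a receptor for Fgf21, was at 0.44 in SM versus control (limma adjusted p = 0.179). Acaca, which makes malonyl-CoA, an inhibitor of Cpt1a, was at 0.54 in SM versus control and at -0.66 in SM + MSTF versus SM (limma adjusted p = 0.277 and 0.216). Ppargc1b, a coactivator of oxidation genes, was at 0.53 in SM + MSTF versus SM (limma adjusted p = 0.206). SM + MSTF replicate 3 gave the lowest signal for 9 of the 21 targets (42.9%) and 9 of the 26 regulators (34.6%), and the part of that array in the differences was tested only by leaving it out.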

How the data were processed

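Liver RNA of 10 rats, labelled with Cy3, was read on 10 Agilent Whole Rat Genome arrays. The authors extracted spot intensity with Feature Extraction 10.7 (per the labels). The deposited series table holds log2 values normalized by quantiles by the authors, and it was used as an alternative. Scaling, background correction, filters, tests, blocks by slide or replicate number and each array left out were tried as alternatives. Processed intensity was quantile normalized over the 10 arrays, as the methods name, transformed to log2 and averaged over spots of a probe. Probes were named through the RefSeq table by accession (17512 of 41012), and the brightest tested probe stood for a gene. Comparisons used limma 3.58.1 in R 4.3.3 with all 10 arrays in 1 fit, Benjamini-Hochberg adjustment over 22991 tested probes, and scripts tested on simulated data. The labels do not say that replicate numbers pair animals. Members, lists and the rule for named genes (each list's called genes, the 2 smallest p of SM over control and of SM + MSTF over SM, and the 3 genes most like the members) were chosen with earlier results of these data known. Some genes that the rule names are not reported here. No columns were left unmatched. The number of arrays limits the precision.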

Additional observations from a re-analysis of the deposited data

Results flagged for a closer look

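In SM, Aacs lay at a log2 signal of 8.55, 8.65 and 8.68 in replicates 1, 2 and 4 and at 7.66 in replicate 3, whose gap to the nearest of the others was 0.867 of the whole range of the group, above the 95% critical value of Dixon's test for 4 samples. Of the 30 genes checked in that group, chance flags about 1 in 20, and this was the only one.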

How the results depend on the processing

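The direction of the 8 members' differences was kept in all but 9 of the recomputed values. Acadm turned to 0.0334 (SM versus control) and -0.0796 (SM + MSTF versus SM) under 75th percentile scaling, and Fgf21 turned to -0.66 in SM + MSTF versus control with the slide as a fixed block. With 1 array left out, the log2 fold change in SM + MSTF versus control ran from -0.18 to 0.87 for Cpt1a, -0.124 to 0.0497 for Acadm and -0.62 to 1.14 for Fgf21, and in SM + MSTF versus SM from -0.0119 to 0.155 for Acadm and -0.0229 to 1.74 for Fgf21. The members called in SM versus control became 1 with the deposited log2 values (Ehhadh), 1 with no fold minimum (Bdh1) and 1 by the methods' t-test (Ehhadh), which also took 1 in each other comparison.

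Pathway genes called in SM versus control (1) became 4 by the methods' t-test, 0 with the replicate block, 0 with the slide as a random block and 0 to 1 with 1 array left out. For SM + MSTF versus control (0) they became 8 by the methods' t-test and 11 with the slide as a fixed block. The fixed block leaves only SM + MSTF replicate 3 against the controls of slide 1. Its calls therefore rest on 1 animal, whose array stood apart in this pathway, and do not describe the group. For SM + MSTF versus SM (2) the pathway genes called became 1 under 75th percentile scaling and 5 by the methods' t-test. They became 0 with normexp, with no filter on dim probes and with probes well above background on all 10 arrays. They were also 0 with only the groups compared, with the replicate block and with a random slide block. With 1 array left out they ran from 0 to 3.

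All probes called in SM versus control (553) became 217 with normexp (38 higher, against 224 of 553), 342 with no dim filter, 336 with probes above background on all 10 arrays, 1131 by the methods' t-test (320 after adjustment), 53 with the replicate block, 85 with the slide as a random block and 61 to 715 with 1 array left out. Calls in SM + MSTF versus control (0) became 285 by the methods' t-test (0 after adjustment) and 0 to 248 with 1 array left out. The 248 came without SM + MSTF replicate 3, where treatment and slide cannot be told apart. Those in SM + MSTF versus SM (290, 74 higher) became 57 with normexp, 140 with probes above background on all 10 arrays, 147 with only the groups compared, 863 by the methods' t-test (13 after adjustment), 64 with the replicate block, 102 with the slide as a random block and 96 to 291 with 1 array left out. Under 75th percentile scaling 58 of 378 there were higher. The cause of these moves was not tested.

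Arrays of the same replicate number deviated together with correlations of -0.10 to 0.17 and those of different numbers with -0.23 to 0.18, so the number was not taken as a pairing, and with the replicate block 0 members were called in each comparison.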
